A study of Mus musculus with 6 samples.

Results

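The dual-specificity phosphatase (Dusp), Sprouty (Spry) and Spred genes encode inhibitors that MAP kinase signalling often switches on and that then dampen it. Here they are the 10 genes Dusp1, Dusp2, Dusp4, Dusp5, Dusp6, Dusp10, Spry1, Spry2, Spred1 and Spred2, found by gene symbol among 21851 genes in the deposited tables. The submitters sorted LT-HSCs, the long-term stem cells that renew the blood, out of the bone marrow of wild-type (WT) mice and sequenced their RNA. For 3 months the mice were fed either a control diet (CD) or one high in cholesterol (HCD), with 3 libraries from each. The sources used here do not give strain, age or sex, or say whether each library is a separate animal. The p-values therefore reflect library-to-library spread alone, and some of it may be technical.

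MAP kinases of the ERK, JNK and p38 families are switched on when a threonine and a neighbouring tyrosine are phosphorylated. Dusp phosphatases strip both phosphates, each with its own preference among the families and its own place in the cell. Sprouty and Spred proteins act higher up, between receptor tyrosine kinases such as KIT and the RAF kinases. Several of these genes are themselves transcribed within minutes of MAP kinase activation, which closes a negative feedback loop.

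The values are FPKM, read counts scaled to transcript length and to library size, so levels of different genes can be set side by side. From the worth of 1 read in low values, the libraries held roughly 18910000 to 20080000 reads each. At that depth 1 FPKM corresponds to about 44.8 reads for Dusp1 and 54.1 for Dusp10, taking the longest annotated transcript of each. The sort gate was Lin- c-Kit+ Sca1+ CD34- CD135-. Kit averaged 121.7 ± 0.84 FPKM (SD, n = 3) under CD and Ly6a (SCA1) 66.7 ± 2.89, but Cd34 averaged 470.7 ± 15.4 and Flt3 (CD135) 113.7 ± 1.19, and Slamf1, a stem cell marker, only 1.79 ± 0.47 (3.41 ± 0.27 under HCD). Of the other genes listed with these markers, Procr averaged 19.9 ± 0.83 FPKM under CD and 22.2 ± 2.15 under HCD. Cd48 averaged 67.9 ± 1.2 under CD and 72.5 ± 3.01 under HCD. By the limma test given below, 1 of these 7 genes was higher under HCD and 0 lower, against 6.28% and 7.66% of all genes. It was Slamf1 (log2 change 0.67, limma adjusted p = 0.0118). The transcripts of Cd34 and Flt3 thus go against the labelled gate for CD34 and CD135, and the libraries are called by their labels. In bulk RNA, fewer cells of a type and less RNA per cell cannot be told apart.

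The question put to these libraries was whether the feedback inhibitors differ after the cholesterol-rich diet. Of the 10 genes 5 were higher under HCD: Dusp1 (2.31-fold), Dusp10 (1.88-fold), Spry1 (1.74-fold), Dusp5 (1.46-fold) and Spry2 (1.40-fold). Dusp2 was lower by 17.7%. Dusp4, Dusp6, Spred1 and Spred2 did not pass the test. The test was limma on log2(FPKM + 1), with p adjusted by Benjamini-Hochberg over the 10676 genes that reached 1 FPKM in at least 3 libraries, and a threshold of 0.05. All 10 genes were among them, so 6 of 10 passed, Dusp10 included, against 13.9% of all genes tested. The genes were chosen with earlier results of these data known, so these counts describe them and give no independent support. Dusp10 entered the test only because it was higher under HCD. It adds no support to this count or to those that follow. By direction, 5 of 10 rose against 6.28% of all genes, and 1 of 10 fell against 7.66%. The median log2 change was 0.22 over these genes and -0.03 over all genes tested. HCD and CD libraries did not overlap for 8 of the 10, against 37.7% of all genes. In 5 of them HCD lay above CD (15.0% of all genes) and in 3 below (22.7%). Dusp1 and Spry2 passed under all 15 alternatives tried (other settings, or 1 library left out), whereas the calls of Dusp2, Dusp5, Dusp10 and Spry1 each depended on particular libraries and settings, as given beside each gene.

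**Figure D1:**
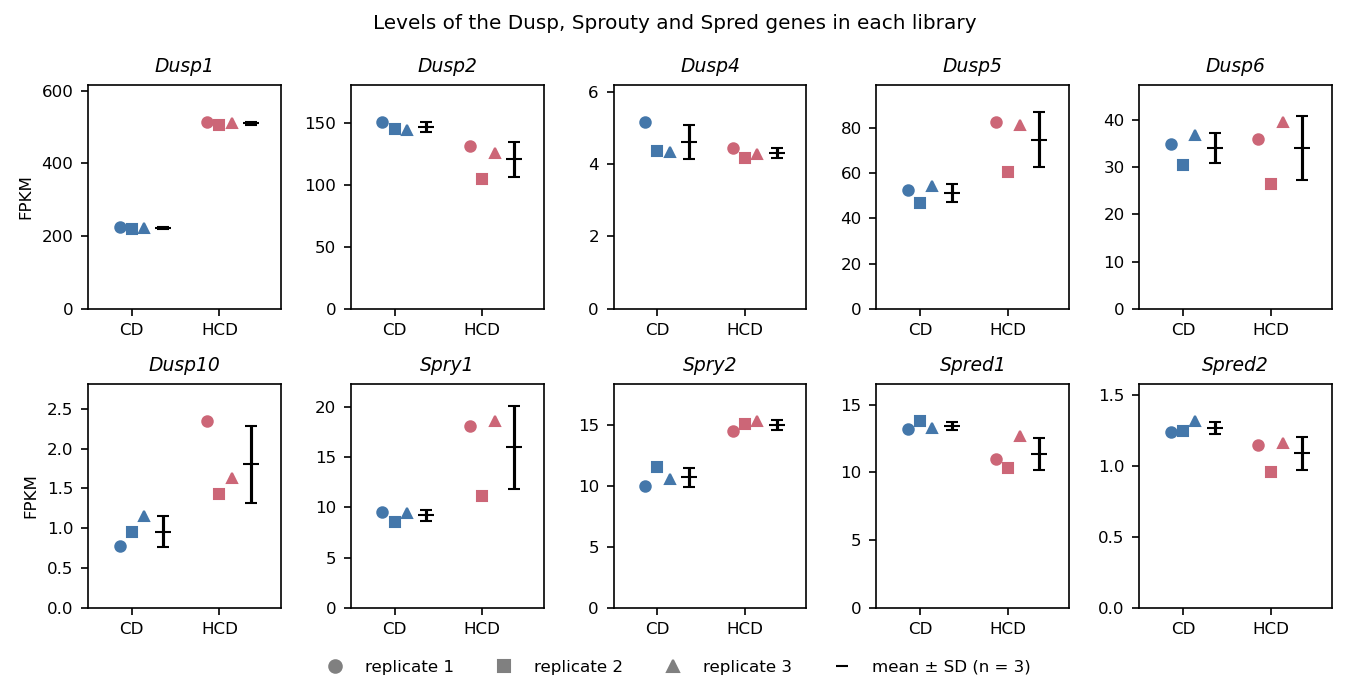
Level of each gene in FPKM (y axis, from 0) in the CD and HCD libraries, with symbol shape marking the replicate and the group mean ± SD (n = 3) in black. The groups stand apart most widely in Dusp1, where the HCD libraries lie between 506.2 and 514.5 FPKM, while in Dusp6 and Dusp4 they overlap.

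The stretches just upstream of 3 of the genes are shown because these genes differ in how they changed and in the motifs there. Any link between motif and change was not tested. Each run is 200 bases long, covers bases -250 to -51 before the RefSeq gene start (GRCm38.p6) and reads 5′ to 3′ on the strand of the gene. Capitals mark matches to the CRE core TGACGT, the binding motif of the CREB and ATF factors, in Dusp1, and CArG boxes, bound by serum response factor, in Dusp5. Other matches, a CRE core at the end of the Dusp5 run and an E-box in the Dusp1 run, are left in lower case. Dusp6 has no capitals.
Dusp1, chr17:26508523-26508722, minus strand: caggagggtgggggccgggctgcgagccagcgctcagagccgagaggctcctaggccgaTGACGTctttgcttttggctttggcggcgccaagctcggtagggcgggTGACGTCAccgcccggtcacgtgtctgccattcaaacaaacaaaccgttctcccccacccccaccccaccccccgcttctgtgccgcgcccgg
Dusp5, chr19:53528895-53529094, plus strand: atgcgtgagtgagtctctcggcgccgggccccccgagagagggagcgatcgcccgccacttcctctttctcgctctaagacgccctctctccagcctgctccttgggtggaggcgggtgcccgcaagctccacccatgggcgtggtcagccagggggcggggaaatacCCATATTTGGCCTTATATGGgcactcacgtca
Dusp6, chr10:99262981-99263180, plus strand: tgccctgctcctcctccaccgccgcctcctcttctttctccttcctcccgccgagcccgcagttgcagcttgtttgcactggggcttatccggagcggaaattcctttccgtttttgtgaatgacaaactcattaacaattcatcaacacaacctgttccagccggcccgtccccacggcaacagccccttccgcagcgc

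Searched on both strands over the full 250 bases, with overlapping matches counted as 1 site, the Dusp1 window held 2 CRE cores. They lie at -191 to -186 and at -143 to -136, and the second is the full palindrome TGACGTCA. A CRE core occurred in 6.47% of all 32841 upstream windows of the same length, from 27018 genes, and 0.387% held 2 or more. The full palindrome occurred in 1.55%. The Dusp1 window also held an E-box, CACGTG, a motif present in 6.02% of windows. In Dusp5, 2 CArG boxes stand next to each other, CCATATTTGG at -82 to -73 and CCTTATATGG at -72 to -63. At least 1 CArG box occurred in 1.47% of windows, and 2 or more in 6 windows (0.0183%). Dusp5 and Spred2 each held 1 CRE core (at -56 to -51 and -52 to -47), and Dusp2 held 1 E-box. The Dusp6, Dusp10, Spry1, Spry2 and Spred1 windows held no match to the CRE core, CArG box, AP-1 site TGANTCA, ETS site CCGGAAG, E-box or TATA motif TATAAA. Dusp10, Spry1 and Spry2 thus rose without a match, while Spred2, not called, held a CRE core. RefSeq upstream sequence was used for 9 of the 10 genes, all except Dusp4. The motifs were chosen with the sequences in view, and a match describes the letters of the window, not binding.

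Dusp1 encodes a nuclear phosphatase that inactivates p38, JNK and ERK, and is a classical immediate early gene. It lies on chromosome 17, 26505591 to 26508472 (GRCm38.p6). It stood at 224.3, 218.4 and 221.6 FPKM in CD replicates 1, 2 and 3, and at 514.5, 506.2 and 512.1 FPKM in HCD replicates 1, 2 and 3. The libraries of each diet lie within a narrow band, and the bands are far apart. The means were 221.4 ± 2.96 and 510.9 ± 4.25 FPKM (SD, n = 3), a log2 change of 1.20 ± 0.04 (SE; limma adjusted p = 2.56e-06). This was the 32nd largest rise among the 10676 genes tested. With any 1 library left out, the log2 change of Dusp1 stayed between 1.19 and 1.21. Its mean over the 6 libraries exceeded that of 98.7% of genes tested. Dusp1 shares 11 exon bases with Ergic1 on the opposite strand, and whether the authors counted by strand is not given in the sources used here.

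Dusp2, a nuclear phosphatase found mainly in blood cells, was the next most abundant of the group and the one that fell. It lies on chromosome 2, 127336159 to 127338377. Its levels were 150.9, 145.2 and 144.0 FPKM in CD replicates 1 to 3 and 131.8, 105.0 and 125.5 in HCD replicates 1 to 3. All HCD libraries lie below all CD libraries, with HCD replicate 2 the lowest. Dusp2 had a log2 change of -0.28 ± 0.08 (SE; limma adjusted p = 0.0463). The call was lost with trimmed-mean (TMM) scaling (adjusted p = 0.0604), with quantile normalization (0.0755), without the filter (0.096), and when CD replicate 1, 2 or 3 or HCD replicate 3 was left out (up to 0.159). Without HCD replicate 2 the log2 change was -0.19 (adjusted p = 0.00552).

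Dusp5 encodes a nuclear phosphatase specific for ERK (chromosome 19, 53529145 to 53541809). It measured 52.75, 46.77 and 54.5 FPKM in CD replicates 1 to 3 and 82.85, 60.83 and 81.35 in HCD replicates 1 to 3. The groups do not overlap, and replicate 2 is the lowest library of each diet. Dusp5 had a log2 change of 0.53 ± 0.11 (SE; limma adjusted p = 0.0196). Without HCD replicate 2 it was 0.67 (adjusted p = 0.000102), and leaving out any other single library ended the call (adjusted p from 0.0521 to 0.0803). The call was also lost without the filter (0.0565) and with HCD replicates 1 and 3 averaged (0.0564). An annotated antisense gene shares 547 exon bases with Dusp5, so reads of the pair cannot be told apart if strand was not used.

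Dusp6, the cytoplasmic ERK phosphatase (chromosome 10, 99263231 to 99267489), is widely used as a readout of ERK activity. It gave 34.93, 30.49 and 36.77 FPKM in CD replicates 1 to 3 and 36.05, 26.45 and 39.63 in HCD replicates 1 to 3. The CD range lies within the HCD range, and replicate 2 is again the lowest of each diet. The log2 change was -0.016, with a 95% interval from -0.325 to 0.293 (limma adjusted p = 0.945). Changes within that interval, in either direction, are not told apart from none. The sign depended on the setting: it was 0.011 with TMM scaling and 0.15 without HCD replicate 2.

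Within a library, the ratio of Dusp5 to Dusp6 removes what moves both genes alike. It was 1.51, 1.53 and 1.48 in CD replicates 1 to 3 and 2.30, 2.30 and 2.05 in HCD replicates 1 to 3. HCD replicate 2, low for both genes, thus stands with the other HCD libraries in this ratio. The difference had an exact two-sided permutation p of 0.1, the smallest that 3 libraries against 3 allow, and the ratio was chosen after its values were seen.

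Dusp4, a nuclear phosphatase related to Dusp1 and Dusp5 (chromosome 8, 34807610 to 34819894), was low. It measured 5.16, 4.35 and 4.33 FPKM in CD replicates 1 to 3 and 4.43, 4.17 and 4.28 in HCD replicates 1 to 3. The groups overlap, and CD replicate 1 is the highest library. Dusp4 had a log2 change of -0.083, with a 95% interval from -0.28 to 0.114 (limma adjusted p = 0.552).

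Dusp10 acts on p38 and JNK rather than ERK (chromosome 1, 184034381 to 184075636). It was near the detection filter, at 0.772, 0.956 and 1.149 FPKM in CD replicates 1 to 3 and 2.35, 1.43 and 1.63 in HCD replicates 1 to 3. The groups do not overlap, and HCD replicate 1 is the highest. Dusp10 had a log2 change of 0.51 ± 0.14 (SE; limma adjusted p = 0.0449), and 0.83 with a pseudocount of 0.1. Of the 4 libraries that reached 1 FPKM 3 were HCD, so Dusp10 entered the test only because it was higher there, and it adds no support to the count. The call was lost without the filter (adjusted p = 0.082), with the length trend removed (0.0513), with HCD replicates 1 and 3 averaged (0.0799), and when any library other than HCD replicate 2 was left out (up to 0.158). Without HCD replicate 2 the adjusted p was 0.0115.

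Spry1 and Spry2 encode Sprouty proteins, which receptor tyrosine kinases induce and which then curb RAS and RAF activation. Spry1 (chromosome 3, 37639947 to 37644599) measured 9.51, 8.58 and 9.46 FPKM in CD replicates 1 to 3. In HCD replicates 1 to 3 it measured 18.1, 11.1 and 18.6. The groups do not overlap, but HCD replicate 2 lies much closer to the CD libraries than to its own group. The log2 change was 0.70 ± 0.17 (SE; limma adjusted p = 0.0268). It was 0.93 without HCD replicate 2 (adjusted p = 1.89e-05), and leaving out any other single library ended the call (adjusted p from 0.0657 to 0.0963). The call was also lost without the filter (0.0715) and with HCD replicates 1 and 3 averaged (0.0731). An annotated transcript on the opposite strand shares 710 exon bases with Spry1.

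Spry2 (chromosome 14, 105891947 to 105896819) stood at 9.98, 11.6 and 10.6 FPKM in CD replicates 1 to 3 and at 14.6, 15.1 and 15.3 in HCD replicates 1 to 3. The groups are well apart and HCD replicate 2 lies between the other HCD libraries. The log2 change was 0.45 ± 0.07 (SE; limma adjusted p = 0.0053), and between 0.41 and 0.50 with any 1 library left out (adjusted p up to 0.0327). Spry1 lay below Spry2 in all 3 CD libraries, while under HCD their ranges overlapped.

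Spred1 and Spred2 encode Sprouty-related membrane proteins, and SPRED1 brings the RAS inactivator neurofibromin to the membrane. Spred1 (chromosome 2, 117121071 to 117182279) gave 13.2, 13.8 and 13.3 FPKM in CD replicates 1 to 3 and 11.01, 10.35 and 12.66 in HCD replicates 1 to 3. All HCD libraries lie below the CD libraries, yet the log2 change of -0.23 ± 0.08 (SE) did not pass (limma adjusted p = 0.0859). Without HCD replicate 3 it passed, at -0.30 (adjusted p = 0.0356). Spred2 (chromosome 11, 19924442 to 20024026) was 1.23, 1.25 and 1.31 FPKM in CD replicates 1 to 3 and 1.14, 0.952 and 1.16 in HCD replicates 1 to 3. Its groups do not overlap either, and its log2 change of -0.12 had a 95% interval from -0.332 to 0.093 (limma adjusted p = 0.415).

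**Figure D2:**
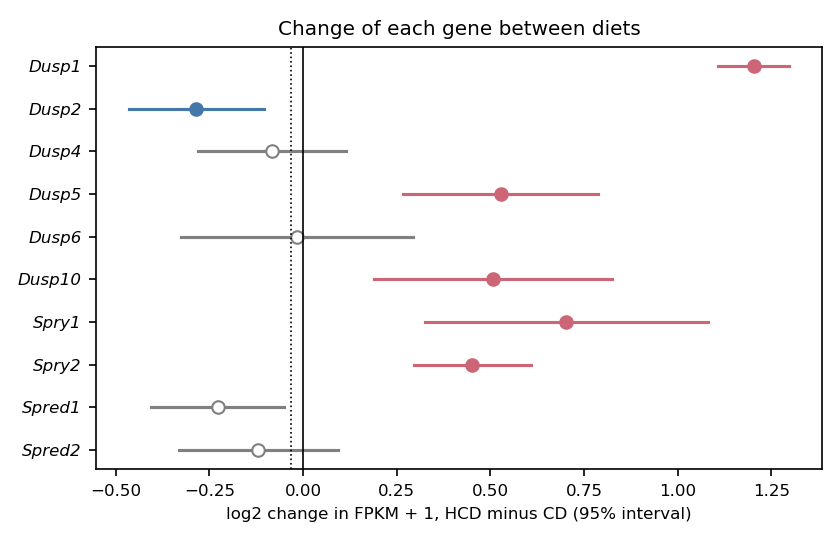
Change of each gene between diets as the log2 difference in FPKM + 1, HCD minus CD (x axis), with 95% intervals from limma. Red is higher and blue lower past an adjusted p of 0.05, open grey is not past it, and the dotted line is the median of all genes tested (-0.03). Dusp1 has the largest change, 1.20, and the narrowest interval.

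The genes fell into levels that kept nearly the same order under both diets. Under CD the order was Dusp1, Dusp2, Dusp5, Dusp6, Spred1, Spry2, Spry1, Dusp4, Spred2 and Dusp10, and no neighbours overlapped between their libraries. Under HCD Spry1 and Spry2 came before Spred1 by mean, with overlapping Spry1 and Spry2 ranges, and Dusp10 came before Spred2. The Spry1 and Spred1 ranges overlapped too, with Spry1 at 11.14 FPKM in HCD replicate 2 and Spred1 at 12.66 in HCD replicate 3. Summed over the 10 classical MAP kinase phosphatase genes (the Dusp genes above with Dusp7, Dusp8, Dusp9 and Dusp16), FPKM went from 468.1 ± 12.1 under CD to 755.6 ± 37.6 under HCD (SD, n = 3). Without Dusp1 the sums were 246.7 ± 9.22 and 244.7 ± 33.5, with overlapping ranges of 236.2 to 253.6 and 206.2 to 266.7. Dusp1 accounted for 46.9 to 48.0% of the summed FPKM in the CD libraries and for 65.9 to 71.1% in the HCD libraries. Dusp2 accounted for 30.5 to 31.9% under CD and 14.7 to 16.9% under HCD. These sums and shares are descriptions, since the p of 3 libraries against 3 cannot go below 0.1.

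The libraries of a diet did not move alike for all of these genes. HCD replicate 2 was the lowest HCD library in 9 of the 10 genes, against 46.9% of all genes tested. CD replicate 2 was the lowest CD library in 4, namely Dusp1, Dusp5, Dusp6 and Spry1, against 37.9% of all genes. HCD replicate 2 stood at 0.61 times the mean of the other HCD libraries for Spry1, 0.70 times for Dusp6, 0.72 times for Dusp10 and 0.74 times for Dusp5. For Dusp1 the ratio was 0.99 and for Spry2 it was 1.01. Among early response genes the ratio was 0.47 for Fosb (named after its values were seen), 0.71 for Jun, 0.75 for Junb and 0.91 for Fos. Over 5130 genes with 100 to 1000 reads, the median squared difference of HCD replicate 2 from HCD replicates 1 and 3 was 6.63 and 7.29 times sampling noise, against 2.53 between those 2. The part this library's deviation over all genes has in the values above was not tested.

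**Figure D3:**
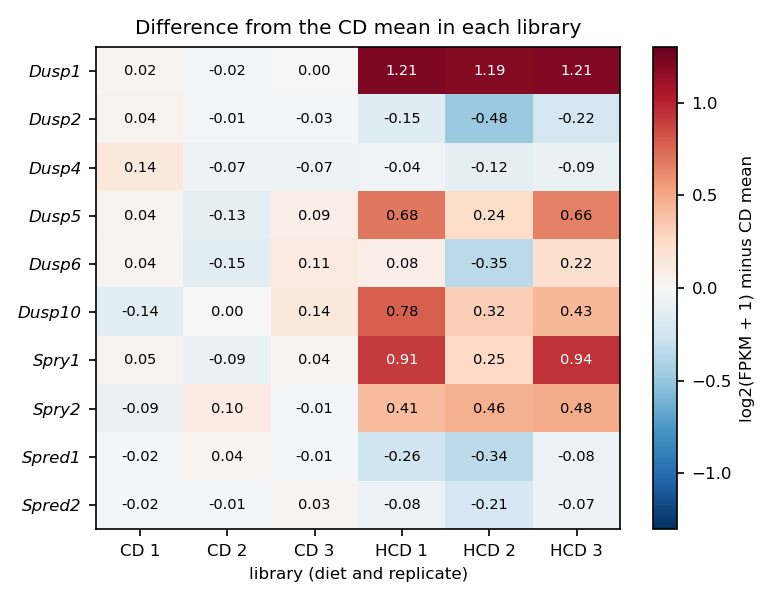
Difference of each library from the CD mean, in log2(FPKM + 1), for each gene (rows) and library (columns), with the value in each cell. Dusp1 is at 1.19 to 1.21 in every HCD library and Spry2 at 0.41 to 0.48, while Dusp5 and Spry1 are at 0.24 and 0.25 in HCD replicate 2 and above 0.6 in the others.

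The genes whose profiles lay nearest to Dusp1 over the 6 libraries, by root mean square distance between log2 values centred on the CD mean, were Rhob (0.065), Ctsg (0.078) and Mt1 (0.086). Rhob, which encodes a small GTPase, went from 139.5 ± 1.28 to 330.1 ± 26.1 FPKM. Ctsg encodes the granule protease cathepsin G and Mt1 a metallothionein. Nearest to Spry1 were Ppp1r15a (0.032), Fosl2 (0.05) and Tsc22d3 (0.064). Ppp1r15a, which encodes the GADD34 phosphatase subunit, went from 93.2 ± 2.82 to 154.3 ± 37.1 FPKM, with 111.5 in HCD replicate 2. Fosl2, an AP-1 subunit gene, stood at 17.3, 9.87 and 18.5 FPKM in HCD replicates 1 to 3, with a low replicate 2 as in Spry1. Nearness was measured over these same libraries, so a shared low replicate 2 follows from how the genes were picked.

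Of 6 other MAP kinase phosphatase, Sprouty and Spred genes in the files, 3 were tested and 0 passed by limma (0 at an unadjusted p under 0.05). Dusp7, the most abundant, averaged 5.602 ± 0.91 FPKM under CD and 4.86 ± 0.53 under HCD. Of 14 atypical dual-specificity phosphatase genes, which lack the MAP kinase docking domain, 9 were tested and 1 rose, against 6.28% of all genes. It was Dusp23, from 8.15 ± 1.19 to 11.9 ± 1.52 FPKM (limma adjusted p = 0.0282), a call lost when HCD replicate 1 or any CD library was left out (adjusted p up to 0.0926) and without the filter (0.0673). Dusp13, Dusp14 and Dusp21 were listed at 0 in all libraries. Phosphatases of ERK outside the Dusp family had 0 of 4 past the threshold by limma (0 at an unadjusted p under 0.05), with Ppp2ca at 165.6 ± 3.09 and 165.0 ± 13.8 FPKM. Over all genes tested 13.9% passed, the share to set beside the counts of 0 here.

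In the RAS to ERK cascade, on which most of these inhibitors act, 1 of 20 genes rose and 0 fell by limma, against 6.28% higher and 7.66% lower over all genes tested. The share that rose is near that background. The median log2 change was -0.01. In all, 6 had an unadjusted p under 0.05. The riser was Gab2, an adaptor that links receptors to RAS activation, from 10.3 ± 0.36 to 13.1 ± 1.21 FPKM (limma adjusted p = 0.0289). The call was lost without any CD library or HCD replicate 1 (adjusted p up to 0.114), without the filter (0.0536) and with HCD replicates 1 and 3 averaged (0.0573). Kit, the stem cell factor receptor and the most abundant of the list, was 121.7 ± 0.84 under CD and 118.2 ± 3.94 under HCD (adjusted p = 0.541). In the JNK and p38 cascade 2 of 16 tested genes rose and 0 fell by limma (2 at an unadjusted p under 0.05). They were the kinase genes downstream of p38, Mapkapk2, from 80.8 ± 1.35 to 94.9 ± 1.35 FPKM (adjusted p = 0.00943), and Mapkapk3, from 30.9 ± 1.33 to 36.7 ± 1.46 (adjusted p = 0.0218). The Mapkapk2 call was lost without CD replicate 1 or 3 (adjusted p up to 0.0558), and that of Mapkapk3 without any library other than HCD replicate 2 (up to 0.0942) and with HCD replicates 1 and 3 averaged (0.0661).

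Among 14 tested genes of other brakes on RAS signalling 1 rose and 1 fell, against the 6.28% and 7.66% of all genes, again near the background. Dok3, an adaptor that recruits inhibitors, went from 3.42 ± 0.59 to 5.40 ± 0.88 FPKM (limma adjusted p = 0.0332). The ubiquitin ligase gene Cbl went from 22.3 ± 0.22 to 18.8 ± 1.63 (adjusted p = 0.0496). Dok3 lost its call when any library other than HCD replicate 2 was left out (adjusted p up to 0.109), without the filter (0.0722) and with HCD replicates 1 and 3 averaged (0.0822). Cbl lost it without any CD library or HCD replicate 1 (up to 0.153), and also with TMM scaling, a pseudocount of 0.1, no filter, the length trend removed, or HCD replicates 1 and 3 averaged. Of 7 kinases downstream of ERK 0 passed by limma (1 at an unadjusted p under 0.05), with Mknk2 at 79.1 ± 1.73 and 75.9 ± 2.31 FPKM. With the replicate number as a block, the calls went from 2 to 3 among the other brakes, from 1 to 2 in the RAS to ERK cascade and from 9 to 10 among the ERK-responsive genes described next, and from 0 to 1 each among kinases downstream of ERK and phosphatases of ERK outside the Dusp family.

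ERK-responsive genes, which include many early response genes, had 7 risers and 2 fallers among 15 tested, against 6.28% higher and 7.66% lower over all genes, and their median log2 change was 0.27. Fos, an AP-1 subunit gene, went from 661.5 ± 19.5 to 1695 ± 89.5 FPKM (limma adjusted p = 6.37e-06). The transcription factor gene Egr1 went from 211.2 ± 6.88 to 357.1 ± 34.0 (adjusted p = 0.00077), and Jun from 446.3 ± 21.2 to 1001 ± 189.5 (adjusted p = 0.0014). Ier2 (log2 change 0.81) and Junb (0.88) rose too. Myc, the growth regulator, fell from 145.1 ± 1.23 to 105.2 ± 7.27 FPKM (adjusted p = 0.00197), as did the cyclin D1 gene Ccnd1, named after its values were seen (log2 change -0.88). The 6 that did not pass were Egr3, Ier3, Etv5, Phlda1, Elk3 and Srf. Their log2 changes ran from -0.17 (Etv5) to 0.27 (Ier3), with limma adjusted p from 0.122 to 0.91. The ratio of Dusp1 to Fos within a library was 0.325 to 0.34 under CD and 0.294 to 0.318 under HCD. The ranges do not overlap, and the HCD libraries are the lower (exact two-sided permutation p = 0.1, the smallest possible here).

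**Figure D4:**
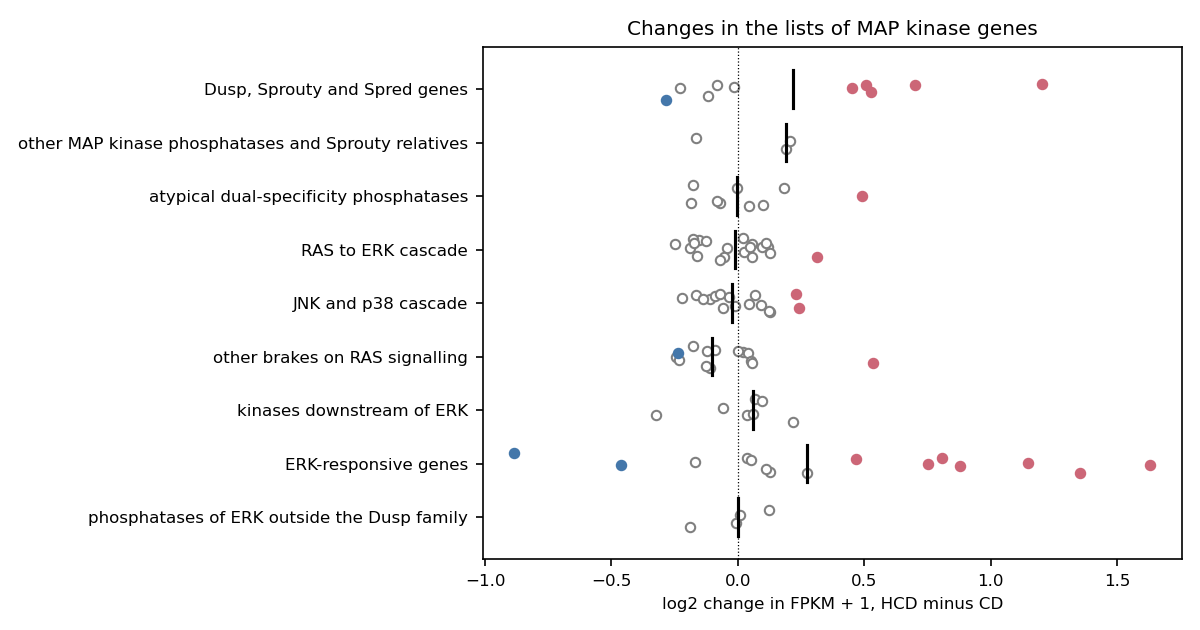
Log2 change in FPKM + 1, HCD minus CD (x axis), of every tested gene in each list (rows), with the list's median as a black bar. Red and blue are higher and lower past an adjusted p of 0.05, and open grey is not past it. The filled points lie mostly among the feedback genes (6 of 10) and the ERK-responsive genes (9 of 15), while the cascades hold 1 of 20 and 2 of 16, against 13.9% of all genes tested. The 6 include Dusp10, which entered the test only because it was higher under HCD and adds no support to the count. The genes and lists were chosen with earlier results of these data known, so the counts give no independent support.

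Over all genes tested 6.28% were higher under HCD and 7.66% lower, the shares to set beside the marker counts below. Some marker genes of other cells differed between the diets beside these genes. Some of them reached 1 FPKM in the libraries of 1 diet alone, so they entered the test only through the diet where they are high, and they add nothing to the counts that follow. These were Camp and Lcn2 (neutrophil), Gp1ba (megakaryocyte) and Klrb1c (NK cell) in HCD, and C1qa and C1qb (macrophage) and Igll1 (B cell) in CD. Of 8 neutrophil markers 7 were tested and 7 rose, Camp and Lcn2 included, with a summed level of 518.5 to 544.1 FPKM in CD libraries and 921.5 to 1059 in HCD libraries. Most of that sum is Mpo, the myeloperoxidase gene that myeloid progenitors also express, at 463.3 to 487.3 FPKM in CD and 699.2 to 838.1 in HCD libraries. Ngp stood at 0.899, 1.05 and 1.19 FPKM in CD replicates 1 to 3, so it met the filter only through the HCD libraries. Its rise adds nothing to the count. Of 7 megakaryocyte markers 5 were tested and 5 rose, Gp1ba included, with sums of 50.8 to 54.9 and 83.8 to 98.5. Itga2b made up most of these sums, at 34.5 to 37.7 FPKM in CD and 57.7 to 66.2 in HCD libraries. Of 7 tested monocyte and macrophage markers 4 rose and 2 fell (C1qa and C1qb), with sums of 36.02 to 38.41 and 67.6 to 75.4. Within these sums Ly6c2 alone stood at 8.94 to 10.2 FPKM in CD and 36.9 to 43.3 in HCD libraries. Of 4 tested B cell markers 0 rose and 1 fell (Igll1), with sums of 27.8 to 37.2 and 29.1 to 31.5. Of 4 tested erythroid markers 0 passed by limma (1 at an unadjusted p under 0.05), with sums of 39.2 to 42.4 and 32.2 to 43.9. Of 3 tested T and NK cell markers 2 rose, Klrb1c included, and 1 fell (Cd4), with sums of 105.0 to 110.1 and 128.8 to 150.8. Nkg7 made up most of these sums, at 102.1 to 107.2 FPKM in CD and 125.9 to 148.5 in HCD libraries. Cd4 reached 1 FPKM in every CD library but under HCD only in replicate 3. It thus entered the test through the diet where it is high, and its fall adds nothing to the count. Cd3e was listed at 0 in all libraries. Of 3 tested endothelial and stromal markers 2 rose (Pecam1 and Pdgfrb) and 1 fell (Emcn), with sums of 59.2 to 61.5 and 70.6 to 73.4. The other 5 on that list, Cdh5, Kdr, Cxcl12, Lepr and Col1a1, were under 1 FPKM in all libraries. Their part in the changes of the Dusp and Sprouty genes was not tested.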

How the data were processed

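Libraries were made from mRNA of sorted cells with a stranded kit, per the labels' protocols. Reads were handled with fastp, HISAT2 and StringTie on GRCm38 (mm10), per the submitters' processing notes. The sources used here name no versions, annotation, filters or strand setting. The authors' deposited unit was read as FPKM from the tools named and from sums of 427218.8 to 462370.4 per library, because no header states it. The tables hold 21878 rows, and 27 whose symbol had turned into a date (0.127% of the FPKM) were left out. Depth was estimated from 1963 low genes, of which 82.0% gave whole multiples of 1 read in the libraries compared (tolerance 0.02), and 0.1% did so with wrong depths. A count model was not used, because the values are per length.

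Two-sided tests on log2(FPKM + 1), without covariates, used limma 3.58.1 under R 4.3.3 (trend and robust options on). TMM factors were computed from FPKM. The fit was tested on simulated data. The members, lists and tests were chosen with earlier results of these data known. Named were all members, up to 6 genes past the threshold with the smallest p in each of 8 pathway lists, the most abundant gene of each list, sort markers, and the nearest profiles. Gene positions and upstream sequences are from RefSeq (GRCm38.p6), and transcript lengths and exon overlaps from GENCODE vM21 on GRCm38.

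Libraries of a diet differed from each other by 2.41 to 7.29 times sampling noise (median squared difference over 5130 genes at 100 to 1000 reads), so none was taken as another library deposited again. Each counted as 1 sample, though this does not show separate animals. Same-numbered libraries had the highest correlations of deviations over genes (0.103, 0.292 and 0.166, all over 0.1, against -0.25 to 0.098 for other pairs). Replicates 1 and 3 were barely told apart, since CD replicate 1 gave 0.103 with HCD replicate 1 and 0.098 with HCD replicate 3. The labels do not say that the numbers pair, and the fit with the block was an alternative.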

Additional observations from a re-analysis of the deposited data

How the results depend on the processing

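Of the 10676 genes tested 1488 passed, 670 higher and 818 lower, against 793 higher and 624 lower after TMM scaling. The count of all genes went from 435 to 2672 when 1 library was left out (the highest without HCD replicate 2, the lowest without CD replicate 1), and was 895 with HCD replicates 1 and 3 averaged. The count of Dusp, Sprouty and Spred genes past the threshold was 6, Dusp10 included. It went from 2 to 6 when 1 library was left out, and was 2 without the filter and 3 with HCD replicates 1 and 3 averaged. The fits with lower counts also had fewer samples, or more genes tested. The part of this in the falls was not tested. The count over the pathway lists was 15, and 8 to 24 with 1 library left out. The replicate block changed no call among the 10 genes (6 past the threshold) and gave 1873 genes in all and 20 in the pathway lists. The sign of Dusp6, not called, turned with TMM scaling (log2 change 0.011), and ranged from -0.13 to 0.15 with 1 library left out. No other of the 10 genes changed sign under the alternatives (15, or 14 where the stricter filter removed the gene). Depth limits Dusp10 and Spred2 most, at about 1 FPKM.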
